A study of Mus musculus with 12 samples.

Results

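The 9 genes described here encode free fatty acid receptors and the signalling proteins that GPR120 is known to use. They are the receptors Ffar4 (GPR120), Ffar2 and Gpr84, the G protein subunits Gnaq and Gna11, the arrestins Arrb1 and Arrb2, the adaptor Tab1 and its kinase Map3k7 (TAK1). They were chosen by symbol, out of 18193 genes that had a probe set annotated to that gene alone. A probe set is a group of short array probes read as 1 value, and where a gene had several, the one with the highest mean over all arrays stood for it. All 9 genes were found, with 24 probe sets.

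Skeletal muscle RNA of 12 mice was hybridised to 12 one-colour Affymetrix arrays, 3 mice in each of 4 groups. The groups were wild type on a normal diet (WT ND), wild type on a high fat diet (WT HFD), GPR120 knockout on a normal diet (KO ND) and GPR120 knockout on a high fat diet (KO HFD). All mice were 16 weeks old and had a mixed 129/Sv and C57BL/6 background, so the wild types carried that background too. The sources used here give neither the knockout allele, nor the sex of the mice, nor the muscle sampled. Mouse numbers run in a different range in each group, so group and cohort or litter cannot be told apart.

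GPR120 senses long-chain fatty acids at the surface of the cell. Once bound, it couples to the G proteins Gq and G11, which act through phospholipase C on calcium and protein kinase C. It also recruits β-arrestin 2, which takes the receptor into the cell and can hold TAB1 away from TAK1, a kinase that passes inflammatory signals on to NF-κB and JNK. In muscle samples these receptors are known less from the fibres themselves than from the fat cells, macrophages and other immune cells that lie between them.

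Values are deposited log2 signals. The median of all 45037 probe sets that were not controls was 3.78 (13.8 on the linear scale), and genes above it on average, 11345 in all, entered the test, so the filter is a median and not a detection call. The 10 skeletal muscle markers averaged 12.3 to 14.0 on the log2 scale, at the top of the range of all probe sets, as the tissue label says. The mean log2 ratio of 3′ over 5′ control probe sets for beta-actin and Gapdh, which reads RNA integrity, was higher on average on HFD in both genotypes. It was −0.02 ± 0.09 in WT ND, 0.18 ± 0.02 in WT HFD, 0.07 ± 0.06 in KO ND and 0.16 ± 0.13 in KO HFD (SD, n = 3). The diet groups did not overlap in WT but did in KO, where ND ran from 0.01 to 0.12 and HFD from 0.02 to 0.28. Each group has 3 arrays, and that number limits the precision.

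The genes fell into 2 levels of signal. Ffar4 and Gpr84 lay at the 20.1th and 18.7th percentile of all probe sets and did not pass the filter. The other 7 genes did, from Ffar2 at the 59.5th percentile through Tab1 (68.3th), Arrb2 (71.9th), Arrb1 (72.2th), Gnaq (85.1th) and Map3k7 (86.7th) to Gna11 at the 90.2th. Probe sets of different genes bind with different strength, so these percentiles rank array signals and not transcript numbers. As a reference for a dim signal, 44 probe sets of olfactory receptors, genes that muscle is not known to use, had a median of 1.99, with 5th and 95th percentiles of 0.04 and 3.58. Ffar4, at a mean of 1.61, and Gpr84, at 1.51, lay at the 38.6th and 36.4th percentile of that reference. Ffar2, at 4.62, lay above its 95th percentile.

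**Figure D1:**
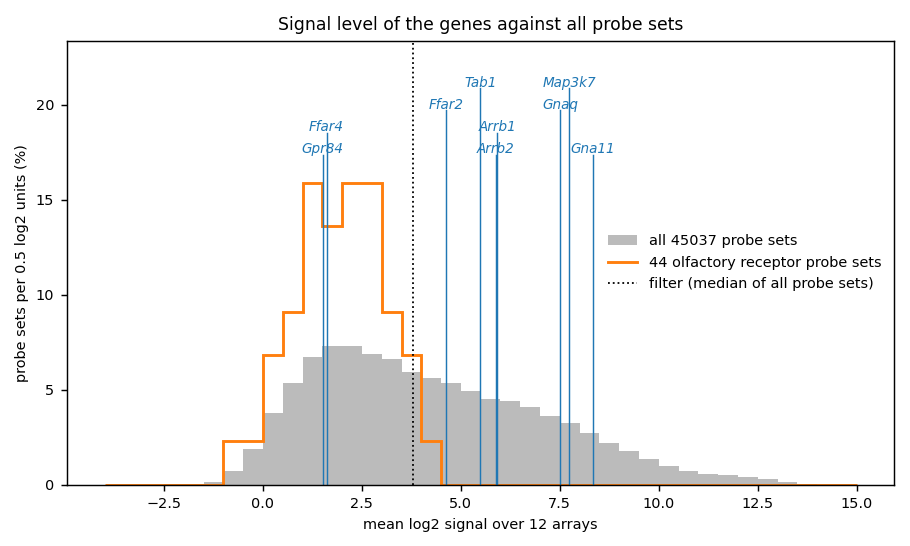
Mean log2 signal over the 12 arrays on the x axis against the share of probe sets per 0.5 log2 units on the y axis, for all 45037 probe sets (grey) and 44 olfactory receptor probe sets (orange); vertical lines mark the brightest probe set of each gene, at heights set only for legibility, and the dotted line marks the filter at 3.78. Ffar4 (1.61) and Gpr84 (1.51) sit inside the olfactory receptor range, and the other 7 genes sit to the right of the filter.

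Ffar4, the gene named as knocked out, could not serve as a check of the genotype labels at this signal. Its only probe set read −0.19, 2.26 and −1.39 in the WT ND mice and 1.28, 2.40 and 0.56 in the WT HFD mice. In the knockouts it read 3.22, 3.88 and 0.33 on ND and 3.19, 2.76 and 0.98 on HFD. The KO arrays held the highest values and no KO array was below the lowest WT value, but the groups overlapped, and 1 of 12 arrays, a KO ND mouse, passed 3.78. The mean was 0.82 over the WT and 2.39 over the KO arrays, a WT minus KO difference of −1.57 on the log2 scale (p = 0.09, two-sided exact permutation test within diet over 400 assignments, which can go no lower than 0.005). The within-group SD of 1.52 compares with a median of 1.20 for the olfactory receptor probe sets. The sources used here do not say whether this probe set lies in the deleted part of the gene.

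Gpr84, found mainly on myeloid cells, where it binds medium-chain fatty acids, was equally dim. It read 0.18, 1.84 and 0.82 in WT ND, 2.10, 0.91 and 0.19 in WT HFD, 2.54, 3.82 and −0.71 in KO ND and 2.40, 2.91 and 1.14 in KO HFD. The highest and the lowest value both came from KO ND mice, and every pair of groups overlapped. In the limma fit without the filter, no difference of either gene passed: the genotype difference averaged over diets was 1.57 for Ffar4 (adjusted p = 0.493) and 1.01 for Gpr84 (adjusted p = 0.682). Both probe sets were high and low on the same arrays. Over the 12 arrays their signals had a Pearson r of 0.795 and a Spearman rho of 0.881, with permutation p adjusted over 36 pairs of the 9 genes of 0.0781 and 0.0115, and r was 0.833 without the 2 arrays farthest from the median of Ffar4. Taken about the group means, r was 0.786. The 12 points share arrays and scaling, and the mean signal of the olfactory receptor probe sets ran from 1.47 to 2.22 over them. With that mean, Ffar4 had a Pearson r of −0.137 and a Spearman rho of −0.238 over the 12 arrays, and Gpr84 0.149 and 0.0070 (permutation p adjusted over these 2 relations from 0.669 to 0.991). Without the 2 arrays farthest from the receptor's median, r was −0.137 and −0.179.

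**Figure D2:**
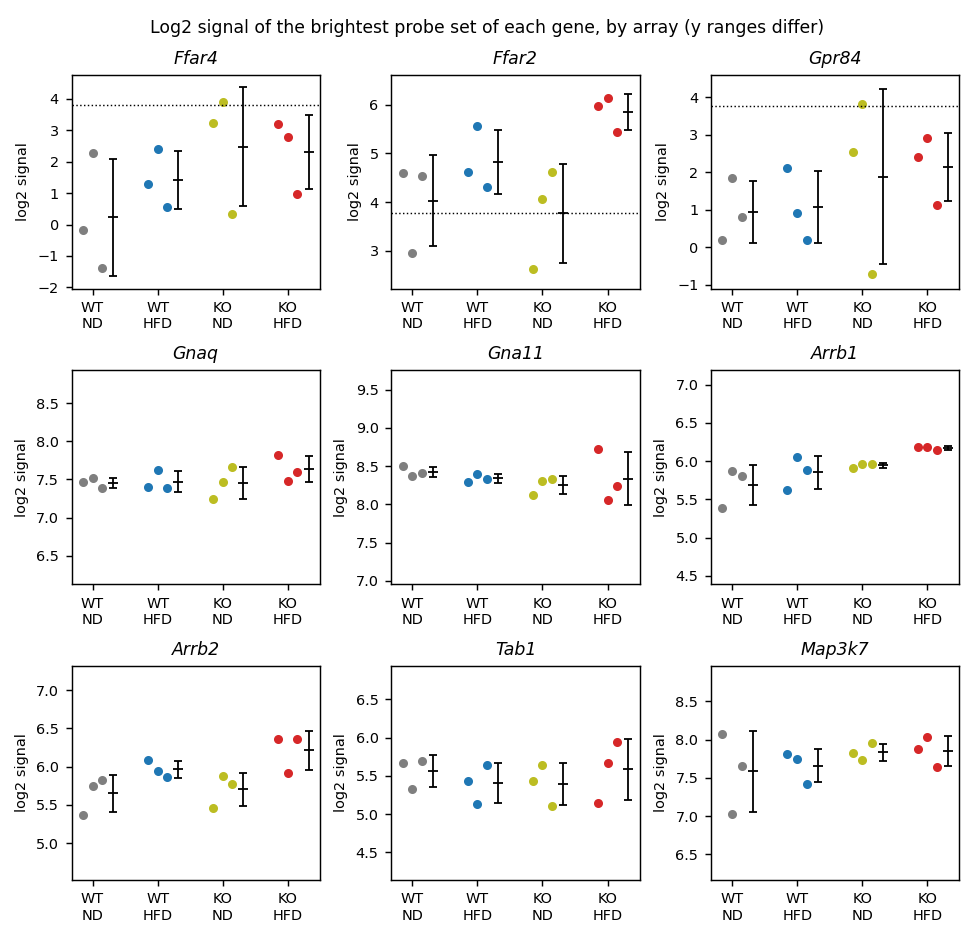
Log2 signal (y axis) of the brightest probe set of each of the 9 genes in each mouse, by group (x axis), with the group mean and SD (n = 3) as bars; the y ranges differ between panels and the dotted line marks the filter at 3.78 where it falls in range. The KO HFD mice hold 3 of the 4 highest Ffar2 values, 5.96, 6.14 and 5.43, while the G protein, arrestin, Tab1 and Map3k7 panels vary within about 1 log2 unit.

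Ffar2, a receptor for short-chain fatty acids on fat cells and on neutrophils and other immune cells, was the only one of the 7 tested genes with a difference past the threshold (adjusted p under 0.05). It read 4.60, 2.96 and 4.54 in WT ND and 4.61, 5.56 and 4.31 in WT HFD. It read 2.63, 4.07 and 4.61 in KO ND and 5.96, 6.14 and 5.43 in KO HFD. All 3 KO HFD mice were above all 3 KO ND mice, whereas the WT groups overlapped. Between diets in KO, 26.5% of all tested genes had groups that did not overlap, in either direction. In KO, Ffar2 was higher on HFD than on ND by 2.08 ± 0.55 log2 units (SE). That is 4.22-fold with a 95% interval of 1.86 to 9.57, at an adjusted p of 0.0485 in the limma fit. Ffar2 was 1 of 7 genes to pass in that comparison, where 4.54% of all tested genes passed. In WT the same difference was 0.80 (95% interval −0.38 to 1.98, adjusted p = 0.413), and 0 of 7 genes passed in WT, 0 of them also at an unadjusted p under 0.05, against 6.06% of all genes past the adjusted threshold and 23.0% at the unadjusted one.

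Averaged over the genotypes, Ffar2 rose by 1.44 ± 0.39 (2.71-fold, adjusted p = 0.0272), again as 1 of 7 genes, with 13.7% of all genes past the threshold. The diet effects in KO and WT were not shown to differ: their difference was 1.28 with a 95% interval of −0.39 to 2.95 (adjusted p = 0.592). KO and WT mice differed in Ffar2 by −0.26 on the normal diet (adjusted p = 0.909) and by 1.02 on the high fat diet (95% interval −0.17 to 2.20, adjusted p = 0.413), and neither passed.

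The call in KO was marginal and ended under most other settings. It was lost when any of 9 of the 12 arrays was left out, namely each KO HFD mouse (adjusted p 0.101 to 0.123), KO ND mice 1 and 2 (differences 1.51 and 2.23, adjusted p = 0.160 and 0.116), WT ND mice 1 and 3 and WT HFD mice 1 and 3 (0.0518 to 0.0579). With the control 3′ over 5′ ratio added to the model, as a covariate, the difference was 1.99 in KO (adjusted p = 0.113) and 1.31 averaged over genotypes (adjusted p = 0.211). The averaged call was also lost without WT ND mouse 2 (1.17, adjusted p = 0.0604), WT HFD mouse 2 (1.25, 0.0689), KO ND mouse 1 (1.15, 0.0547), KO HFD mouse 1 (1.41, 0.051) or KO HFD mouse 2 (1.36, 0.0593). Over all tested genes the covariate also cut the calls for diet. With it 265 genes passed in KO instead of 515, 186 in WT instead of 687, and 522 averaged over genotypes instead of 1552. The ratio was itself higher on average on HFD, so diet and covariate overlap in part. Why calls were lost with it was not tested.

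The second Ffar2 probe set, 1425215_at, averaged 4.38 against 4.62 for 1425216_at. It read 4.02, 3.08 and 3.10 in WT ND, 4.64, 4.75 and 3.65 in WT HFD, 4.30, 4.68 and 4.66 in KO ND and 5.26, 5.40 and 5.06 in KO HFD. The KO HFD mice were again the highest 3 of the 12. By this probe set the diet difference was 0.95 in WT (adjusted p = 0.163), 0.69 in KO (adjusted p = 0.350) and 0.82 averaged over genotypes (adjusted p = 0.0599). It was thus larger in WT than in KO, with a difference of diet effects of −0.25 (adjusted p = 0.917), where the first probe set gave 1.28. By the second probe set KO was above WT by 1.14 on ND (adjusted p = 0.256) and by 0.89 on HFD (adjusted p = 0.313).

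Markers of macrophages and fat cells rose beside Ffar2 in KO. Of 11 tested macrophage markers, 4 rose with diet in KO, where 4.54% of all tested genes passed in either direction. At an unadjusted p under 0.05 there were 9 of 11, beside 19.9% of all genes. Lgals3 rose by 2.45, Adgre1 (the F4/80 antigen) by 1.11, Lyz2 by 1.07 and C1qb by 0.91, and the median difference of the 11 was 0.84. In WT 0 of 11 passed in the limma fit (1 at an unadjusted p under 0.05, beside 23.0% of all genes). There 2 of 11 differences were above 0, and the median of the 11 was −0.35, where the Ffar2 difference was 0.80. On ND 0 of 11 KO minus WT differences were above 0, with a median of −0.59. Of these 0 passed, and 7 had an unadjusted p under 0.05, beside 11.3% of all genes. On HFD Lgals3 and Cd68 were higher in KO, by 2.28 and 2.10, where 0.732% of all genes passed. These calls held in 12 and 8 of 12 fits with 1 array left out. The diet effects differed in 1 of 11, Lgals3, by 3.06, where 0.141% of all genes passed. That call held in 7 of 12 such fits. For the difference of diet effects 8 of 11 had an unadjusted p under 0.05, beside 10.4% of all genes. The summed linear signal of the 12 measured macrophage markers ran from 4175 to 4602 in WT ND, 2440 to 5133 in WT HFD, 2831 to 3872 in KO ND and 4707 to 8287 in KO HFD. Itgam was the one of them below the filter. Of 6 adipocyte markers, Fabp4 and Lpl rose in KO, by 0.53 and 0.37, where 4.54% of all tested genes passed. There 6 of 6 had an unadjusted p under 0.05, beside 19.9% of all genes. In WT 0 of 6 passed in the limma fit, and 2 had an unadjusted p under 0.05, where 23.0% of all genes had one. Fabp4 still went from a mean of 12.68 in WT ND to 13.12 in WT HFD, and Lpl from 12.62 to 12.95. The sum of the 6 ran from 13864 to 15549, 16107 to 24245, 12779 to 17818 and 23915 to 25018 in the same order. For diet in KO, with 1 array left out, Lgals3 and Adgre1 passed in 12 of 12 fits, C1qb in 8, Lyz2 in 7, Lpl in 5 and Fabp4 in 2. Centring the array medians ended the KO calls of the last 4 (adjusted p = 0.0813 for C1qb, 0.074 for Lyz2, 0.275 for Lpl and 0.205 for Fabp4). The 3′ over 5′ covariate ended the same 4 (0.0723, 0.0856, 0.0762 and 0.125), and Lgals3 and Adgre1 still passed (0.00779 and 0.00803). Quantile normalization ended the KO call of Fabp4 only (0.0623). Lpl and Fabp4 are also known from muscle fibres and capillaries. The fat cell hormone Adipoq averaged 10.59, 10.66, 10.36 and 12.07, and its lowest KO HFD array, at 11.70, was above all KO ND arrays. In KO 26.5% of all tested genes had diet groups that did not overlap. The 4 arrays with the highest adipocyte sums, all 3 KO HFD mice and WT HFD mouse 2, were also the 4 with the highest macrophage sums and the 4 with the highest Ffar2 signal. Of 5 tested neutrophil markers 0 passed for diet in either genotype (at an unadjusted p under 0.05, 0 in WT and 1 in KO, beside 23.0% and 19.9% of all genes). Their sums were 129 to 240 over all groups, and Camp, Cxcr2 and Mmp8 were below the filter. All 7 measured lymphocyte markers were below the filter, with sums of 34.8 to 60.1. The part of these cell types in the Ffar2 result was not tested, and in tissue RNA more cells of a type and more RNA per cell cannot be told apart.

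**Figure D3:**
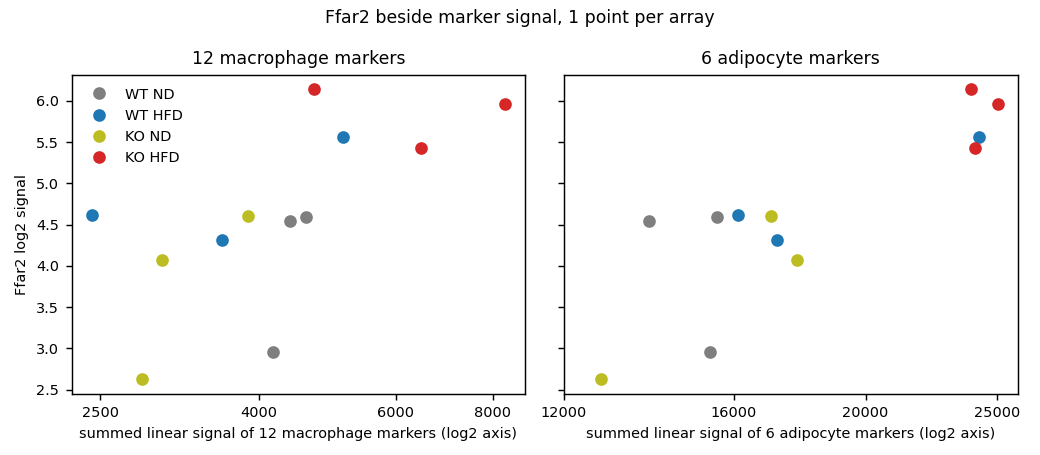
Ffar2 log2 signal (y axis) in each mouse against the summed linear signal (x axis, log2 scale) of 12 macrophage markers on the left and 6 adipocyte markers on the right, coloured by group, 1 point per array. In both panels the 4 arrays with the highest marker sums, the 3 KO HFD mice and WT HFD mouse 2, have the 4 highest Ffar2 values, from 5.43 to 6.14.

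The Gq family subunits, which carry the calcium arm of GPR120 signalling, were bright and varied little. Gnaq read 7.46, 7.51 and 7.39 in WT ND, 7.40, 7.62 and 7.39 in WT HFD, 7.24, 7.46 and 7.66 in KO ND and 7.82, 7.48 and 7.60 in KO HFD. All groups overlapped, and the widest of its differences, diet in KO, was 0.18 (95% interval −0.12 to 0.48, adjusted p = 0.518). Gna11 read 8.50, 8.37 and 8.41 in WT ND, 8.29, 8.40 and 8.34 in WT HFD, 8.12, 8.30 and 8.34 in KO ND and 8.72, 8.05 and 8.24 in KO HFD. Each KO ND mouse was below each WT ND mouse, a difference of −0.17 (95% interval −0.49 to 0.14, adjusted p = 0.726). On that comparison 17.0% of all tested genes had groups that did not overlap, 0.414% passed the threshold, and 0 of these 7 genes passed (0 at an unadjusted p under 0.05, beside 11.3% of all genes). The other Gna11 probe set put the difference at 0.12. Of the other 6 Gnaq probe sets, 4 passed the filter, with means of 7.44, 6.98, 6.04 and 5.47, and 2, at 3.32 and 1.99, did not.

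The arrestins were of middle signal, and both had their highest mean in the KO HFD mice. Arrb1, β-arrestin 1, read 5.39, 5.86 and 5.81 in WT ND, 5.63, 6.06 and 5.88 in WT HFD, 5.91, 5.97 and 5.96 in KO ND and 6.18, 6.19 and 6.14 in KO HFD. The KO mice lay above the WT mice on each diet with no overlap, and the KO HFD mice above every other array. Without overlap there were 17.0% of all tested genes between genotypes on ND, 19.4% on HFD, and 26.5% between diets in KO. The genotype difference was 0.26 on ND (adjusted p = 0.635), 0.32 on HFD (adjusted p = 0.434) and 0.29 averaged over diets (95% interval 0.02 to 0.56, adjusted p = 0.291), so none passed. On HFD 0.732% of all genes and 0 of these 7 passed (14.8% and 0 at an unadjusted p under 0.05). Averaged over diets 1.61% and 0 of 7 passed (15.3% and 1, Arrb1, at an unadjusted p under 0.05).

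Arrb2, β-arrestin 2, is the arrestin through which GPR120 is known to act on TAB1. It read 5.37, 5.75 and 5.83 in WT ND, 6.08, 5.94 and 5.87 in WT HFD, 5.47, 5.88 and 5.77 in KO ND and 6.36, 5.92 and 6.36 in KO HFD. In both genotypes all HFD mice lay above all ND mice, where 26.7% of tested genes in WT and 26.5% in KO had diet groups that did not overlap, in either direction. The diet difference was 0.31 in WT (adjusted p = 0.368), 0.51 in KO (adjusted p = 0.164) and 0.41 ± 0.14 averaged over genotypes (95% interval 0.11 to 0.71, adjusted p = 0.0671), none past the threshold. The averaged difference passed in 1 of 12 fits that left out an array, that without KO HFD mouse 2 (0.48, adjusted p = 0.0451). KO and WT differed by 0.06 on ND (adjusted p = 0.953) and 0.25 on HFD (adjusted p = 0.590). The other Arrb2 probe set, 1451987_at, at a mean of 5.02, read 5.17 ± 0.19 in WT ND, 5.34 ± 0.36 in WT HFD, 4.18 ± 0.92 in KO ND and 5.39 ± 0.29 in KO HFD (SD, n = 3). Its lowest array was a KO ND mouse at 3.14, and by it the ND genotype difference was −0.99 (adjusted p = 0.361). Its diet difference was 0.17 in WT (adjusted p = 0.855), 1.21 in KO (adjusted p = 0.104) and 0.69 averaged over genotypes (adjusted p = 0.120).

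**Figure D4:**
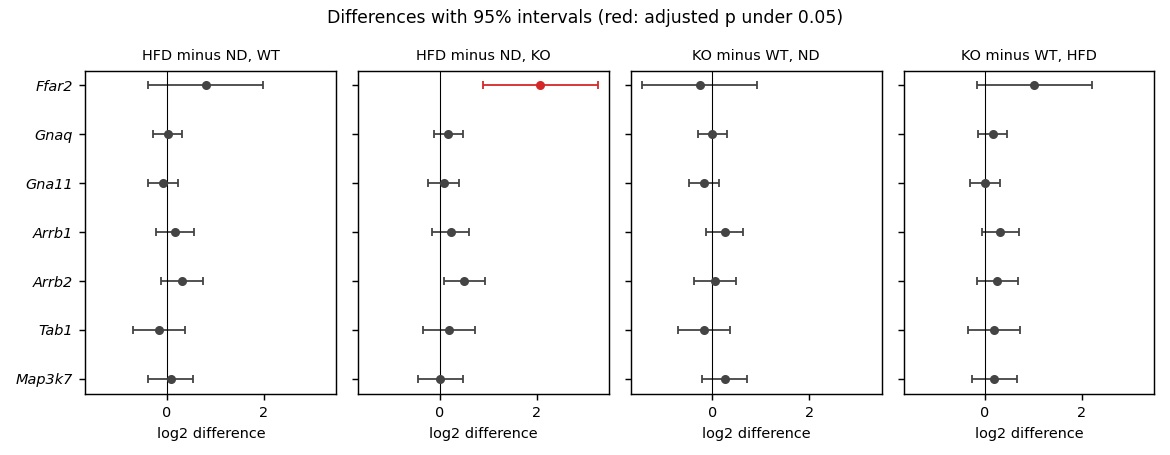
Log2 difference (x axis) with its 95% interval for the 7 tested genes (y axis) in 4 comparisons, from left to right HFD minus ND in WT, HFD minus ND in KO, KO minus WT on ND and KO minus WT on HFD; red marks an adjusted p under 0.05. Ffar2 in KO, at 2.08, is the one red point, and the G protein, arrestin, Tab1 and Map3k7 points lie between −0.17 and 0.51.

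TAB1 and TAK1, the adaptor and the kinase that β-arrestin 2 is known to keep apart, did not pass in any comparison by their brightest probe sets. Tab1 read 5.67, 5.32 and 5.70 in WT ND, 5.44, 5.13 and 5.65 in WT HFD, 5.43, 5.64 and 5.10 in KO ND and 5.15, 5.67 and 5.94 in KO HFD. All its groups overlapped, and the largest of the 7 differences was that between the diet effects, 0.35 (95% interval −0.40 to 1.11, adjusted p = 0.772). In that comparison 0.141% of all genes and 0 of these 7 passed (10.4% and 0 at an unadjusted p under 0.05). Map3k7 read 8.07, 7.03 and 7.65 in WT ND, 7.82, 7.75 and 7.41 in WT HFD, 7.82, 7.73 and 7.95 in KO ND and 7.88, 8.04 and 7.64 in KO HFD. Its widest spread was within WT ND (SD 0.53), and its genotype difference averaged over diets was 0.22 (95% interval −0.11 to 0.55, adjusted p = 0.540). Of 5 further Map3k7 probe sets, 4 passed the filter, and 1 of these, 1426627_at, put that difference at −0.25. Its means were 5.01 in WT ND, 4.24 in WT HFD, 4.31 in KO ND and 4.43 in KO HFD. By 1425795_a_at they were 5.75, 5.21, 5.80 and 5.88 in the same order. By both, the WT diet groups did not overlap, as for 26.7% of tested genes. By 1419988_at and 1447801_x_at the means were 6.18 and 4.13 in WT ND and 6.27 and 4.03 in WT HFD. The brightest probe set gave a WT diet difference of 0.08.

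Over the 6 genes other than Ffar2, 0 of 42 limma differences (6 genes in 7 comparisons) passed the threshold, and 3 had an unadjusted p under 0.05, where 10.4% to 29.1% of all genes had one, depending on the comparison. The smallest adjusted p was 0.0671. The median difference of the 7 tested genes was 0.08 for diet in WT and 0.19 for diet in KO, beside 0.04 and 0.05 over all tested genes. It was 0.0015 between genotypes on ND and 0.19 on HFD, beside 0.02 and 0.03.

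**Figure D5:**
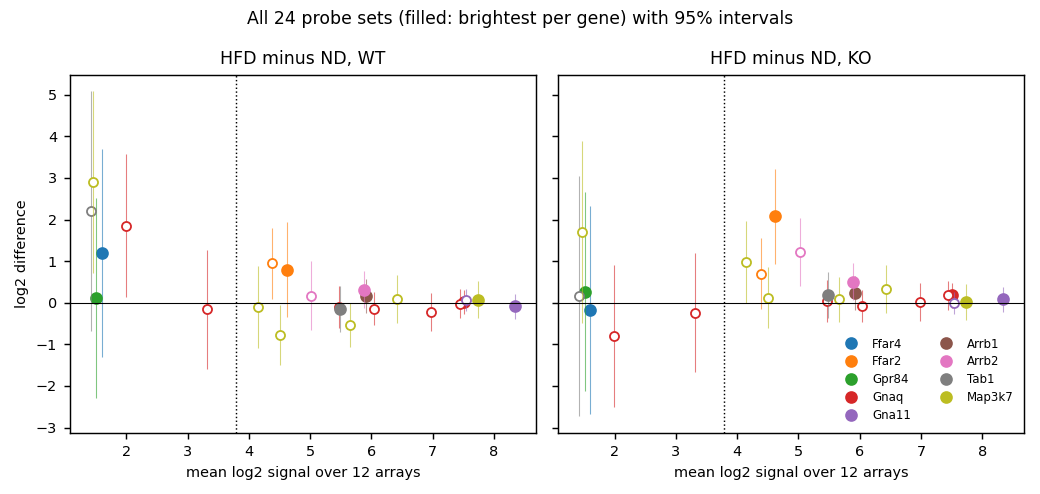
Log2 difference between diets with its 95% interval (y axis) against mean log2 signal (x axis) for all 24 probe sets, in WT on the left and KO on the right; filled points are the brightest probe set of each gene and the dotted line is the filter at 3.78. Probe sets left of the filter have intervals several log2 units wide, and those of the G proteins at 7 and above have narrow ones.

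The wider pathway was read from 6 lists of 90 genes, 67 of them tested. Between genotypes 0 of 67 genes passed in the limma fit on ND (7 at an unadjusted p under 0.05), on HFD (10) or averaged over diets (11), and 0 in the comparison of diet effects (5). As shares of the 67 genes the unadjusted counts are 10.4%, 14.9%, 16.4% and 7.46%, beside 11.3%, 14.8%, 15.3% and 10.4% of all genes. With diet averaged over genotypes 14 of 67 passed, beside 1552 of 11345 (13.7%) over all tested genes. At an unadjusted p under 0.05 there were 29 of 67 (43.3%), beside 29.1% of all genes. With diet in WT 5 of 67 passed and in KO 4, beside 6.06% and 4.54% of all genes. Unadjusted, 18 of 67 (26.9%) were under 0.05 in each genotype, beside 23.0% of all genes in WT and 19.9% in KO.

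Among 20 genes that run from Gq to calcium and protein kinase C, 17 were tested. Of these 2 rose and 2 fell averaged over genotypes, where 13.7% of all genes passed. Rgs2, a GTPase activator that shuts off Gq, fell by 1.58 in WT (adjusted p = 0.0152) and by 1.62 in KO (adjusted p = 0.0166). Its arrays ran from 8.17 to 9.51 in WT ND, 6.96 to 7.37 in WT HFD, 7.81 to 8.77 in KO ND and 6.10 to 6.85 in KO HFD. There was no overlap between diets within a genotype, as for 26.7% of all tested genes in WT and 26.5% in KO. With 1 array left out the call held in 10 of 12 fits in WT and 9 in KO, and the covariate ended it in WT (adjusted p = 0.0812) but not in KO (0.0321). The averaged difference of −1.60 (adjusted p = 0.000929) passed without each array in turn and with the 3′ over 5′ covariate, where adjusted p was 0.0156. Gnb1, a G protein beta subunit, rose by 0.35 and Plcb1, a phospholipase C that Gq activates, by 0.57, while Prkca, a protein kinase C, fell by 0.51. Within a genotype, Prkcq, another protein kinase C, rose by 0.64 in WT (adjusted p = 0.0145; −0.06, adjusted p = 0.850, in KO), Gnb1 by 0.48 in WT (adjusted p = 0.0366) and Plcb1 by 0.87 in KO (adjusted p = 0.0360). These 3 calls held in 10, 4 and 6 of 12 fits with 1 array left out, and the covariate ended each (adjusted p = 0.0812, 0.0624 and 0.0968). Centring the array medians ended the calls of Gnb1 in WT (0.0832) and Plcb1 in KO (0.0902). Quantile normalization ended that of Plcb1 in KO (0.0511). For the averaged effect, centring the array medians ended the Gnb1 and Plcb1 calls (adjusted p = 0.0845 and 0.0719), and the covariate those of Plcb1 and Prkca (0.283 and 0.081). With 1 array left out, the averaged call held in 12 of 12 fits for Gnb1, 8 for Plcb1 and 7 for Prkca. The list's median difference was 0.06, the same as over all genes.

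Of 8 tested genes for other G alpha subunits, 2 passed averaged over genotypes, where 13.7% of all genes passed. Gna13, of the G12/13 family, fell by 0.48 (adjusted p = 0.00274) and Gnai1, an inhibitory subunit, rose by 0.91 (adjusted p = 0.0435). Gna13 passed without each array in turn and with the covariate (adjusted p = 0.0275). Gnai1 passed in 4 of 12 fits with 1 array left out, and lost the call with array medians centred (adjusted p = 0.0806) and with the covariate (0.569). Gna13 also fell by 0.46 in WT (adjusted p = 0.0353) and by 0.49 in KO (adjusted p = 0.0329), calls that held in 6 and 7 of 12 such fits and ended with the covariate (0.117 and 0.0568). Of 8 other receptors for fatty and hydroxy acids, Cd36, a fatty acid transporter also counted as a taste receptor for fat, was the one bright enough to test. It rose by 0.52 averaged over genotypes (adjusted p = 0.00261) and by 0.57 in WT (adjusted p = 0.0197), and with the covariate the averaged adjusted p was 0.0778. The WT call held in 9 of 12 fits with 1 array left out, and ended with array medians centred (adjusted p = 0.0833) and with the covariate (0.212). Hcar1, Hcar2, Gpr35 and Oxgr1 were below the filter, and Ffar1, Ffar3 and Gpr119 had no probe set annotated to them alone.

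Of 15 tested receptor kinases and arrestin partners, 2 rose and 2 fell averaged over genotypes, where 13.7% of all genes passed. Arf6, a small GTPase of membrane traffic that binds arrestin, fell by 0.60, and Cltb, a clathrin light chain, by 0.23, with a fall of 0.37 in KO alone (adjusted p = 0.0372) that held in 6 of 12 fits with 1 array left out and ended with the covariate (0.0505). Ap2a2, a subunit of the AP2 adaptor, rose by 0.30, and Clta, the other clathrin light chain, by 0.18. Of these, Arf6 and Ap2a2 passed without each array in turn, Cltb in 4 and Clta in 2 of 12 such fits, and the covariate ended all of them (adjusted p 0.061 for Arf6, 0.0844 for Cltb, 0.157 for Ap2a2 and 0.384 for Clta). Over all genes the covariate left 522 averaged calls of 1552 without it. Centring the array medians ended the averaged calls of Ap2a2 (adjusted p = 0.124) and Clta (0.450), but not those of Arf6 and Cltb.

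Of 19 tested genes of the TAK1 complex and its neighbouring kinases, 0 passed for diet in WT or KO alone (4 and 2 at an unadjusted p under 0.05, where 23.0% and 19.9% of all genes had one). Averaged over genotypes, where 13.7% of all genes passed, Map2k6, a kinase that activates p38, rose by 0.61 (adjusted p = 0.0288) and Nfkbia, the NF-κB inhibitor, fell by 0.59 (adjusted p = 0.0451). With the covariate adjusted p was 0.0812 and 0.157, and leaving out 1 array kept the calls in 8 and 4 of 12 fits. Of 12 inflammatory transcripts downstream of TAK1, Tnf, Il6, Cxcl2, Ptgs2 and Nos2 were below the filter. Of the 7 tested, Tnfaip3 (A20), which restrains NF-κB, rose by 0.99 averaged over genotypes (adjusted p = 0.0116), without each array in turn and with the covariate (adjusted p = 0.0412). Its means were 4.73 ± 0.39 in WT ND, 5.73 ± 0.61 in WT HFD, 5.10 ± 0.07 in KO ND and 6.08 ± 0.43 in KO HFD (SD, n = 3).

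The tested genes whose log2 signal followed each gene most closely over the 12 arrays, by Pearson r, were as follows. For Ffar2 they were Gbp2 (r = 0.958), Cenpj (0.931) and H2-Aa (0.920). For Gnaq they were Htra2 (0.912), Iah1 (0.896) and Clic1 (0.889), and for Gna11 Esam (0.885), Sec31a (0.883) and Cdk17 (0.855). Arrb1 was followed by Slamf9 (0.940), Slc16a12 (0.887) and Adcy5 (0.884), and Arrb2 by Tmem94 (0.903), Tnfaip2 (0.902) and Ptpdc1 (0.885). Tab1 was followed by Necab2 (0.832), Tbl1xr1 (0.821) and 2410022M11Rik (0.795), and Map3k7 by Lrrc19 (0.930), Prss53 (0.901) and Mfap3 (0.886). These are the highest of 11345 genes over 12 shared arrays and are given as a description.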

How the data were processed

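The authors deposited log2 signals, for which the submitters' processing notes name MAS5. Its version and detection calls are not given in the sources used. No further scaling was applied, and array medians ranged from 3.87 to 4.17. The 64 control probe sets of 45101 were left out, and 34945 of the other 45037 carried 1 gene symbol, 932 several and 9160 none. Genes were matched by exact symbol. Genes whose brightest probe set averaged above the median of 3.78 were tested.

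A model of the 4 group means over 12 arrays was fitted in limma 3.58.1 (R 4.3.3), moderated by empirical Bayes with an intensity trend. It gave 7 contrasts: diet in each genotype, genotype on each diet, both averages and the difference of the diet effects. P-values were adjusted by Benjamini-Hochberg over 11345 genes within a contrast, at 0.05. The script was tested on simulated data. Replicates are separate mice, numbered 1 to 3 within a group in accession order.

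The genes and lists were chosen with earlier results of these data known. Named besides the 9 genes are list genes past the threshold (up to 4 per list and contrast), markers beside Ffar2, and the 3 genes of highest correlation. Gene lists under other settings were added after seeing the data. Correlations used 100000 permutations in numpy 2.4.6, with ranks from scipy 1.17.1. Tables and figures used Python 3.11.15, pandas 2.3.3, numpy 2.4.6 and matplotlib 3.10.9. Alternatives were offsets on the linear signal, other filters, normalization, every probe set, no trend, array weights, the 3′ over 5′ covariate, only the groups compared, and each array left out.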

Additional observations from a re-analysis of the deposited data

How the results depend on the processing

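Of 814 values under alternatives, 693 kept their direction and side of the threshold or stayed near the reported value, 23 lost the threshold, 1 gained it, 14 changed sign and 83 moved. The number of these genes past the threshold for diet in KO was 0 instead of 1 without the filter, with the 75th percentile filter (which leaves Ffar2 untested), with quantile normalization, median centring, every probe set, no intensity trend and the 3′ over 5′ covariate, and for diet averaged over genotypes 0 with the 75th percentile filter and the covariate; leaving out 1 array gave 0 to 1 in both. For Ffar2 in KO the difference and adjusted p were 2.08 and 0.0734 without the filter, 2.01 and 0.061 with quantile normalization, 1.96 and 0.0643 with median centring, 2.08 and 0.0557 with every probe set, 2.08 and 0.0833 without the trend, 1.99 and 0.113 with the covariate, and 0.69 and 0.350 by the other probe set; leaving out 1 array gave 1.51 to 2.50. The averaged difference was 1.31 with the covariate, 0.82 by the other probe set and 1.15 to 1.65 with 1 array left out. Signs changed for differences that had not passed: Ffar2 between genotypes on ND was −0.80 to 0.31 with 1 array left out and 1.14 by the other probe set, its difference of diet effects −0.25 by that probe set, Arrb2 between genotypes on ND −0.084 to 0.18 with 1 array left out and −0.99 by the other probe set, Gna11 on ND 0.12 and Map3k7 averaged over diets −0.25 by another probe set, Gnaq for diet in KO −0.079 by 1428938_at, and Gnaq for diet averaged −0.043 with the covariate and −0.11, −0.10 and −0.029 by 3 other probe sets. Beyond the probe sets themselves, the fewer genes or arrays tested, the cause was not tested. Ffar4 WT minus KO was −1.61 with quantile normalization and −1.55 with median centring. With an offset added to the linear signal it was −1.09 (offset at the 10th percentile) and −0.29 (offset at the median). The permutation p was 0.085 and 0.075 with these offsets. With 1 array left out the difference was −2.11 to −1.17. Over all genes, the number past the threshold ranged, over alternatives and arrays left out, from 186 to 1109 for diet in WT (687 reported), 133 to 881 in KO (515), 9 to 90 for genotype on ND (47), 7 to 237 on HFD (83), 522 to 2401 for diet averaged (1552), 61 to 287 for genotype averaged (183) and 1 to 31 for the difference of diet effects (16). Median centring moved the median difference of all genes by −0.115 for diet in KO and by −0.075 averaged over genotypes. No paired analysis was possible because the labels give no replicate numbers shared between groups.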
